A study of Schizosaccharomyces pombe with 9 samples.

Results

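The 39 genes described here encode fission yeast proteins that build heterochromatin or write, read and remove histone marks. They were taken from a list of symbols, each matched to the *S. pombe* symbols of the array annotation, and all 39 had a named probe set, among 2899 named *S. pombe* genes on the array. Expression was measured on 9 Affymetrix Yeast Genome 2.0 arrays, 1 for WT and 1 for each of 8 deletions that the study linked to the DNA damage response, with the question of how the profile of each deletion differs from that of WT. The deletions were *SPBC2A9.02*Δ, *pab1*Δ, *meu29*Δ, *SPAC3F10.17*Δ, *sec65*Δ, *ash2*Δ, *SPAC27D7.08C*Δ and *sgf73*Δ, and all cultures were untreated and growing exponentially at an OD600 of 0.5 to 1.0. The WT is labelled as SP286, a diploid of genotype h+ ade6-M210 ura4-D18 leu1-32, while the study describes its deletion library as haploid, so that in any ratio to WT the effects of ploidy and of a deletion cannot be told apart. The labels give no further genotype for the deletions. With 1 array per genotype no value below has a replicate, no test was possible, and 9 arrays allow little precision. All 8 ratios of a gene share the single WT array.

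In fission yeast, small RNAs made by Dicer from centromeric transcripts guide the Argonaute complex RITS to chromatin, and RITS in turn brings in the Clr4 complex, which methylates lysine 9 of histone H3. The HP1 proteins Swi6 and Chp2 bind this mark and recruit deacetylases, which keep the underlying genes silent. Many acetyltransferases, and the ubiquitylation of histone H2B, act on chromatin that is transcribed.

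The deleted gene checks the label of an array. The transcript of *ash2*, which encodes a component of the Set1 complex that methylates lysine 4 of H3, was at background in *ash2*Δ, at least 23.1-fold lower than in WT, *meu29* was 12.6-fold lower in *meu29*Δ and *sgf73*, for a subunit of the SAGA acetyltransferase complex, was 33.8-fold lower in *sgf73*Δ. The array labelled *sec65*Δ still gave *sec65* at a ratio of 0.679, and *pab1* was at 0.609 in its own array, so both are named by their labels below. The other 3 deleted genes were looked up only by the names in their labels, which matched no gene symbol, so those labels were not checked. These 2 arrays were also the most alike of all pairs, with an SD of the log2 difference of 0.141 over all genes, which is the only scale of array-to-array difference that this design holds and which spans 2 labelled genotypes. Background was the signal below which 95% of the *S. cerevisiae* probe sets of an array lay, 35.9 to 39.8 signal units. All 39 genes lay above background on all 9 arrays, as did 98.5% to 99.1% of all named genes on each array.

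The transcripts of these genes stayed close to WT in most deletions. Of 312 ratios to WT, 39 genes in 8 deletions, 300 (96.2%) lay within 1.5-fold, beside 90.5% of the ratios of all named genes, and 244 (78.2%) lay within 1.25-fold, beside 74.3%. Only 7 genes passed 1.5-fold in at least 1 deletion, namely *cid12*, *stc1*, *clr4*, *chp2*, *epe1*, *clr1* and *brl2*, whereas 33.5% of all named genes did. A change of 2-fold was passed by 2 genes, *clr4* and *brl2*, against 11.1% of all named genes. Over the 9 arrays the median gene of the list spanned 0.58 log2 units and the median of all named genes 0.63, and 24 of the 39 genes spanned less than the latter.

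**Figure D1:**
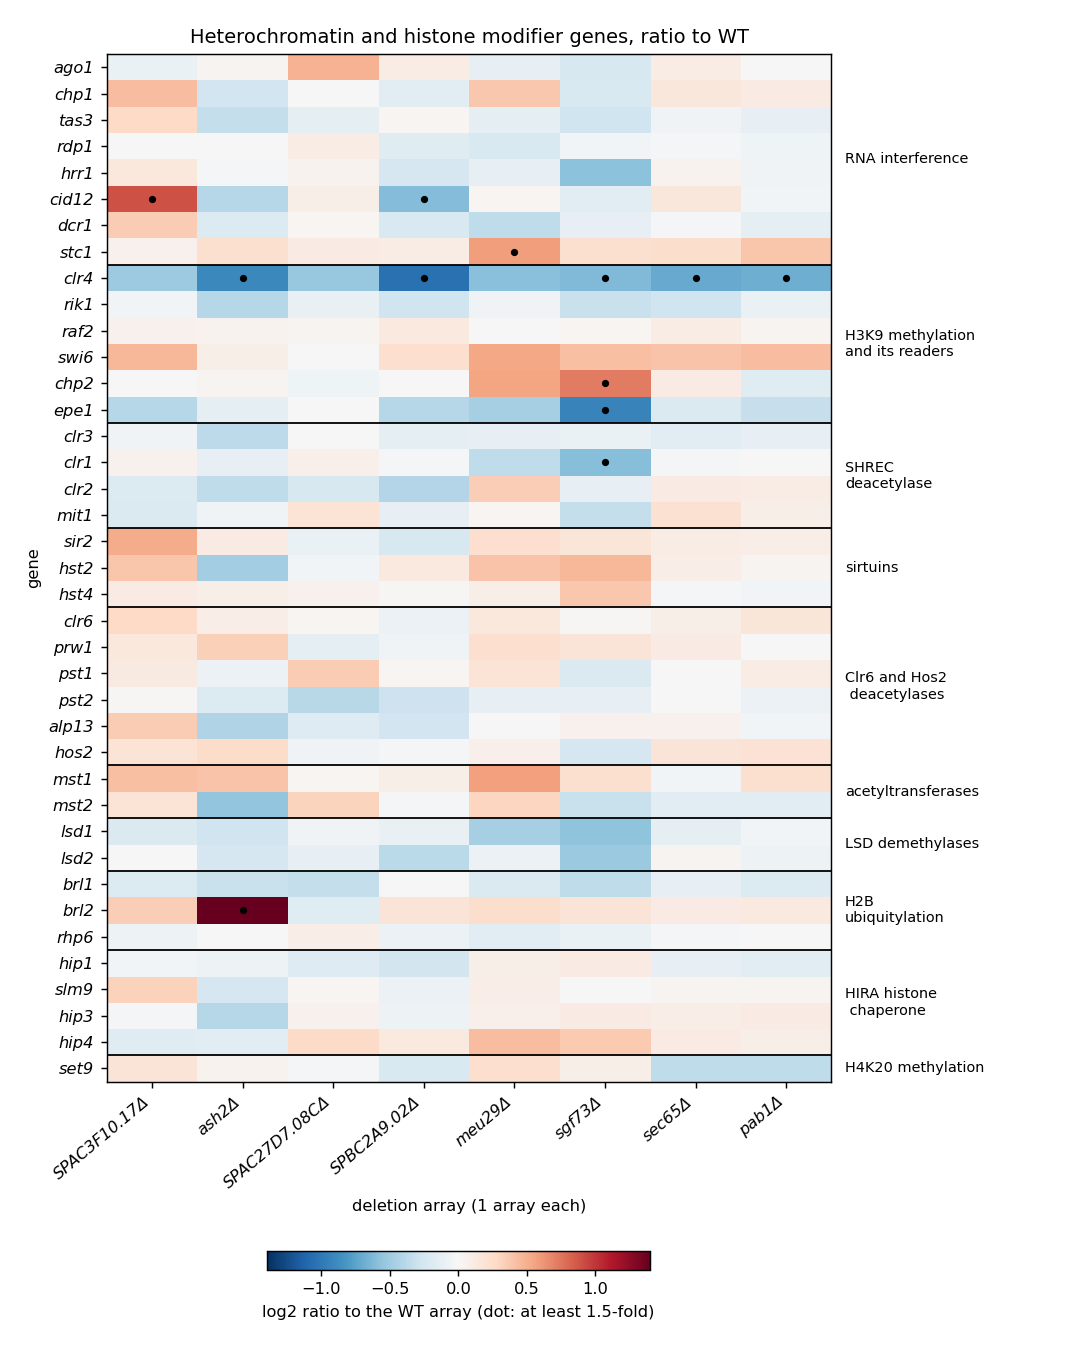
The log2 ratio to the WT array (colour) is shown for each of the 39 genes (vertical axis, grouped by role) in each of the 8 deletion arrays (horizontal axis), and a dot marks a ratio of at least 1.5-fold in either direction. The row of *clr4* is blue throughout, from a ratio of 0.702 down to 0.488, and the darkest cell is *brl2* in *ash2*Δ at 2.63.

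Counted by deletion, no array held more than 4 of the 39 genes past 1.5-fold. In *sgf73*Δ, which had the most, *chp2* was higher and *clr4*, *epe1* and *clr1* were lower, while 8.96% of all named genes were 1.5-fold higher, 9.45% were 1.5-fold lower and 5.98% passed 2-fold in either direction. In *meu29*Δ, where these shares were 8.53%, 7.66% and 4.49%, *stc1* alone passed 1.5-fold, at a ratio of 1.5, whereas under median scaling and under quantile normalization *clr4* did and *stc1* did not. These 2 deletions, with the highest shares of changed genes, therefore placed 4 and 1 of the 39 past that line.

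*SPBC2A9.02*Δ held *cid12* and *clr4* as 1.5-fold lower, with *clr4* past 2-fold, beside 3.38% of all named genes higher, 2.83% lower and 2.27% past 2-fold. In *ash2*Δ, *brl2* was more than 2-fold higher and *clr4* was 1.5-fold lower, beside 3.00% higher, 5.54% lower and 2.23% past 2-fold. In *SPAC3F10.17*Δ only *cid12* was past 1.5-fold, on the high side, beside 6.40% higher, 5.19% lower and 3.34% past 2-fold. Each of these 3 thus had *clr4*, *cid12* or both past the line.

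In *SPAC27D7.08C*Δ none of the 39 genes passed 1.5-fold, where 5.02% of all named genes were higher, 1.71% lower and 2.33% past 2-fold. The array labelled *sec65*Δ had *clr4* alone as 1.5-fold lower, beside 2.16% of all named genes higher, 1.74% lower and 1.36% past 2-fold. The array labelled *pab1*Δ also had *clr4* alone, beside 2.12%, 2.26% and 1.36%. In all 3, no member was 1.5-fold higher than WT.

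The list as a whole moved little. Its median log2 ratio was -0.12 in *ash2*Δ (-0.03 after quantile normalization), where all named genes had -0.01, and -0.09 in *sgf73*Δ, where they had 0.06. In the other 6 deletions the median of the 39 genes lay between -0.08 and 0.07 while that of all named genes lay between -0.03 and 0.07.

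**Figure D2:**
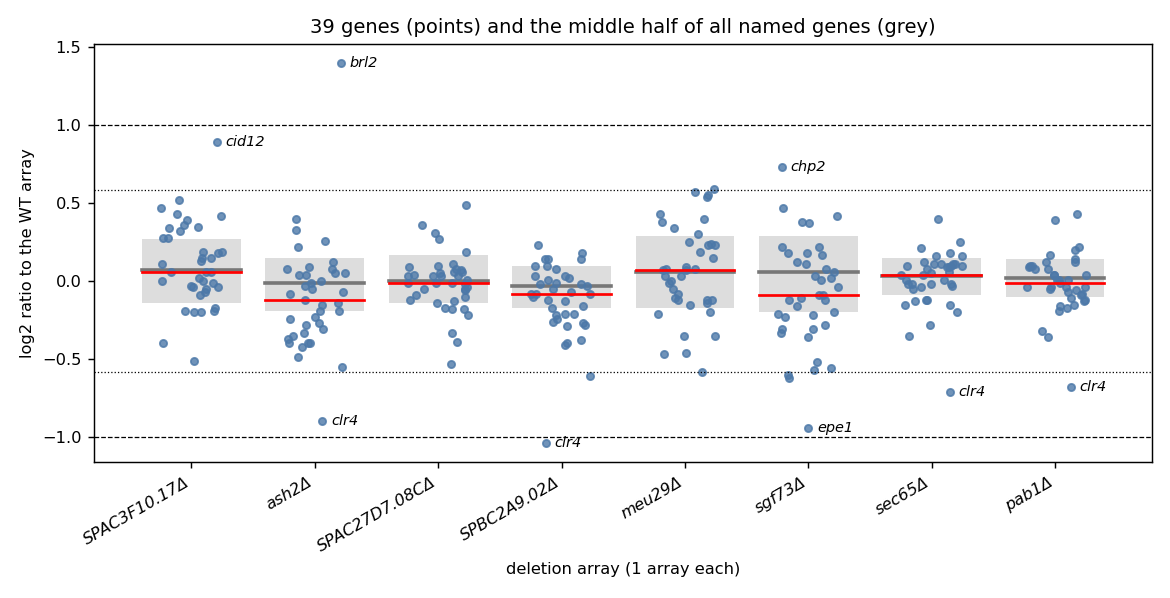
Each point is 1 of the 39 genes, the vertical axis gives its log2 ratio to the WT array and the horizontal axis the deletion array, with points spread sideways for sight only. The red line is the median of the 39 genes, the grey bar and line span the quartiles and median of all named genes, and dotted and dashed lines mark 1.5-fold and 2-fold. Most points lie inside the dotted lines, and the named points outside them are *cid12*, *brl2*, *clr4*, *chp2* and *epe1*.

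The RNA interference genes comprised *ago1*, *chp1* and *tas3*, which encode the RITS complex, *rdp1*, *hrr1* and *cid12* of the RNA-directed RNA polymerase complex, *dcr1* for Dicer, and *stc1*, whose product links RITS to the Clr4 complex. Their 8 transcripts ranged from 0.654 to 1.85 of WT, and none passed 2-fold. In *SPAC3F10.17*Δ 6 of the 8 were higher than WT, with a median log2 ratio of 0.21 (5 of 8 once arrays were scaled to 1 median), and in *sgf73*Δ 7 of the 8 were lower, with a median of -0.18. All named genes had medians of 0.07 and 0.06 in these arrays.

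*cid12* (SPCC663.12), which encodes a poly(A) polymerase family member, had the widest span of the list after *brl2*, 1.5 log2 units. Its signal was 285 in *SPAC3F10.17*Δ, 117 in *ash2*Δ, 163 in *SPAC27D7.08C*Δ, 101 in *SPBC2A9.02*Δ, 158 in *meu29*Δ, 138 in *sgf73*Δ, 172 in the *sec65*Δ-labelled array and 150.2 in the *pab1*Δ-labelled one, and 154 in WT. *SPAC3F10.17*Δ thus stood apart at 1.85 times WT, *SPBC2A9.02*Δ was lowest at 0.654, and the other 6 deletions lay between 0.760 and 1.11. The 2 genes next to it, *saf1* and *naa50*, had ratios of 1.34 and 1.33 in *SPAC3F10.17*Δ and of 0.844 and 0.987 in *SPBC2A9.02*Δ.

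*stc1* (SPBP8B7.28C) was above WT in all 8 deletions. Its signal was 374 in WT, 391 in *SPAC3F10.17*Δ, 436 in *ash2*Δ, 404 in *SPAC27D7.08C*Δ, 400.2 in *SPBC2A9.02*Δ, 563 in *meu29*Δ, 437 in *sgf73*Δ, and 444 in the *sec65*Δ-labelled array and 490.2 in the *pab1*Δ-labelled one. Only *meu29*Δ reached 1.5, or 1.29 against the remaining deletions, and the other 7 lay between 1.05 and 1.31.

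The helicase gene *hrr1* lay just inside the line at 0.674 in *sgf73*Δ, and its other ratios were 0.848 to 1.11. *ago1*, for the Argonaute protein, was highest in *SPAC27D7.08C*Δ at 1.41, with a signal of 1239 beside 881 in WT. *dcr1* gave 86.8 in *meu29*Δ and 140.2 in *SPAC3F10.17*Δ beside 110.4 in WT, ratios of 0.786 and 1.27. The polymerase gene *rdp1* was the flattest of these 8, at 0.867 to 1.07.

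For H3K9 methylation the list held *clr4*, which encodes the methyltransferase, *rik1* and *raf2* for subunits of its complex, the HP1 genes *swi6* and *chp2*, and *epe1*, whose product opposes heterochromatin. Their 6 transcripts did not move together. *clr4*, *rik1* and *epe1* lay mostly below WT, while *swi6* was above it in 7 of 8 deletions.

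*clr4* (SPBC428.08C) was the only member past 1.5-fold in more than 2 deletions. The signal was 105 in WT, 73.5 in *SPAC3F10.17*Δ, 56.1 in *ash2*Δ, 72.6 in *SPAC27D7.08C*Δ, 51.1 in *SPBC2A9.02*Δ, 70.2 in *meu29*Δ, 68.1 in *sgf73*Δ, and 64.3 in the *sec65*Δ-labelled array and 65.4 in the *pab1*Δ-labelled one. WT stood above all 8 deletions, whose ratios ran from 0.702 in *SPAC3F10.17*Δ to 0.488 in *SPBC2A9.02*Δ, and 5 of them passed 1.5-fold. The value in *SPBC2A9.02*Δ lay just past the 2-fold line. The transcript was close to the limit of measurement, at 2.74 times background in WT and 1.28 times background in *SPBC2A9.02*Δ.

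Since a high value on the WT array lowers all 8 ratios at once, *clr4* was also set against the deletions alone. Relative to the other deletions, by the median of the remaining 7, it ranged from 0.751 in *SPBC2A9.02*Δ to 1.12 in *SPAC3F10.17*Δ, so that no deletion passed 1.5-fold. The 2-fold call in *SPBC2A9.02*Δ was also lost, at log2 ratios of -0.68 and -0.61, when background was set at the 99th percentile or a pseudocount of 50 signal units was added. Next to *clr4*, *rxt2* had ratios to WT of 0.967 to 1.32 and *meu6* of 0.982 to 2.80, with *meu6* at its highest in *ash2*Δ.

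The Clr4 partners were steadier. *rik1* was below WT in all 8 deletions at 0.756 to 0.976. *raf2* was at or just above WT and had the smallest span of the list, 0.14 log2 units, with signals of 890 to 981.

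The HP1 gene *swi6* (SPAC664.01C) gave a signal of 1419 in WT, 1964 in *SPAC3F10.17*Δ, 1497 in *ash2*Δ, 1411 in *SPAC27D7.08C*Δ, 1661 in *SPBC2A9.02*Δ, 2062 in *meu29*Δ, 1900.3 in *sgf73*Δ, and 1873 in the *sec65*Δ-labelled array and 1909 in the *pab1*Δ-labelled one. It did not pass 1.5-fold, and 5 arrays formed a group at 1.32 to 1.45 times WT. The other HP1 gene, *chp2* (SPBC16C6.10), gave 345 in WT, 342, 355, 330.3 and 347 in the first 4 of these deletions, 507 in *meu29*Δ, 573 in *sgf73*Δ, 374 in the *sec65*Δ-labelled array and 306 in the *pab1*Δ-labelled one. *chp2* was thus high in *sgf73*Δ and *meu29*Δ, at 1.66 and 1.47, and lay at 0.886 to 1.08 elsewhere.

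*epe1* (SPCC622.16C), which encodes a JmjC-domain protein that limits the spread of heterochromatin, had a signal of 377 in WT and of 287 in *SPAC3F10.17*Δ, 343 in *ash2*Δ, 379 in *SPAC27D7.08C*Δ, 287 in *SPBC2A9.02*Δ, 274 in *meu29*Δ, 197 in *sgf73*Δ, and 328 in the *sec65*Δ-labelled array and 301 in the *pab1*Δ-labelled one. It was lowest in *sgf73*Δ, at a ratio of 0.521, while the other 7 deletions ranged from 0.725 to 1.00. Set against the other deletions by their median, the *sgf73*Δ value was 0.653, still past 1.5-fold, and *chp2* in *sgf73*Δ kept 1.65.

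**Figure D3:**
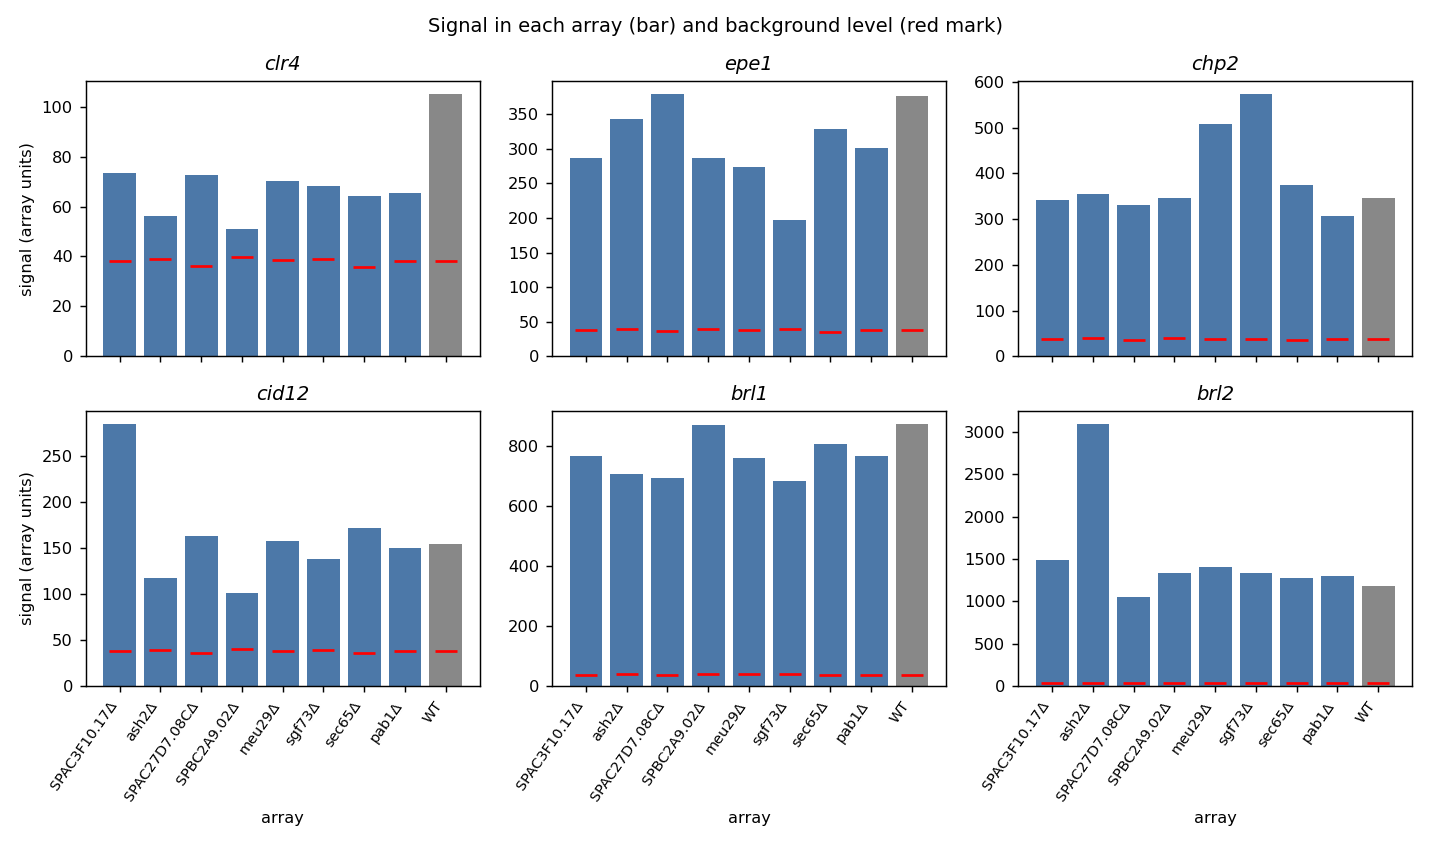
Bars give the signal (vertical axis, linear array units from 0) of 6 genes in each of the 9 arrays (horizontal axis), WT in grey, and the red mark is the background of each array. *clr4* is highest in WT and close to background in all deletions, *epe1* is lowest and *chp2* highest in *sgf73*Δ, *cid12* stands out in *SPAC3F10.17*Δ, and *brl2* but not *brl1* stands out in *ash2*Δ.

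The deacetylase genes numbered 13, in the SHREC, sirtuin and Clr6 and Hos2 groups, and 1 of them, *clr1*, passed 1.5-fold. Their median log2 ratio lay between -0.09 and 0.13 in the 8 deletions. In *SPAC3F10.17*Δ 10 of the 13 were higher than WT, and in *SPBC2A9.02*Δ 10 of the 13 were lower, counts that went to 8 with median scaling and to 8 with quantile normalization, respectively. The median log2 ratios of the 13 there were 0.13 and -0.08, and those of all named genes lay on the same sides, at 0.07 and -0.03.

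SHREC, the complex that removes acetyl groups at silent loci, was represented by *clr3* for its deacetylase, *clr1* and *clr2* for its structural subunits and *mit1* for its chromatin remodeller. *clr1* (SPBC2D10.17) gave 1469 in WT, 1527 in *SPAC3F10.17*Δ, 1351 in *ash2*Δ, 1537 in *SPAC27D7.08C*Δ, 1444 in *SPBC2A9.02*Δ, 1153 in *meu29*Δ, 971 in *sgf73*Δ, and 1442 in the *sec65*Δ-labelled array and 1483 in the *pab1*Δ-labelled one. Its ratio of 0.661 in *sgf73*Δ lay barely past the line, was 0.672 and inside it against the remaining deletions, and was followed by 0.785 in *meu29*Δ, while 6 deletions were within 0.920 to 1.05. *clr3* was below WT in all 8 deletions, at 0.772 to 0.996. All 4 SHREC genes were below WT in *ash2*Δ, *SPBC2A9.02*Δ and *sgf73*Δ, at median log2 ratios of -0.23, -0.13 and -0.22, except that quantile normalization left 3 of 4 below in the first 2. The medians of all named genes in these 3 deletions were -0.01, -0.03 and 0.06. Median scaling also put all 4 below WT in *SPAC3F10.17*Δ, at a median log2 ratio of -0.2, beside -0.0 for all named genes.

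The sirtuin genes *sir2*, *hst2* and *hst4* encode NAD-dependent deacetylases. All 3 were above WT in *SPAC3F10.17*Δ, *meu29*Δ and *sgf73*Δ, with median log2 ratios of 0.39, 0.23 and 0.38, and none passed 1.5-fold against WT. For all named genes the medians in these arrays were 0.07, 0.06 and 0.06. *sir2* (SPBC16D10.07C) was highest in *SPAC3F10.17*Δ, where its signal was 1833 beside 1275 in WT, and its other signals were 1386 in *ash2*Δ, 1198 in *SPAC27D7.08C*Δ, 1091 in *SPBC2A9.02*Δ, 1491 in *meu29*Δ, 1438 in *sgf73*Δ, and 1362 in the *sec65*Δ-labelled array and 1359 in the *pab1*Δ-labelled one. Those are ratios of 1.44 at the top and 0.856 at the bottom. *hst2* ran from 0.714 in *ash2*Δ, or 0.649 and past 1.5-fold against the remaining deletions, to 1.39 in *sgf73*Δ, and *hst4*, for the enzyme that acts on acetylated lysine 56 of H3, stayed between 0.972 and 1.31.

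*clr6* encodes the essential class I deacetylase, *pst1* and *pst2* its Sin3-type scaffolds, *prw1* and *alp13* further subunits, and *hos2* the deacetylase of the Set3 complex. Their 6 transcripts stayed between 0.748 and 1.28 of WT. *clr6* (SPBC36.05C) had signals of 3328 in WT, 4039.6 in *SPAC3F10.17*Δ, 3553 in *ash2*Δ, 3394 in *SPAC27D7.08C*Δ, 3156 in *SPBC2A9.02*Δ, 3684 in *meu29*Δ, 3365 in *sgf73*Δ, and 3518 in the *sec65*Δ-labelled array and 3736 in the *pab1*Δ-labelled one. It was within 0.948 to 1.21 of WT. The widest range here was that of *alp13*, from 0.748 in *ash2*Δ to 1.28 in *SPAC3F10.17*Δ, and all 6 genes were above WT in the *sec65*Δ-labelled array and in *SPAC3F10.17*Δ, though only 4 and 5 of them after median scaling. The median log2 ratios of the 6 genes in these arrays were 0.07 and 0.17, beside 0.03 and 0.07 for all named genes.

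The acetyltransferase genes of the list were *mst1*, for the essential MYST enzyme of the NuA4 complex, and *mst2*, for the enzyme that acetylates lysine 14 of H3. *mst1* (SPAC637.12C) had signals of 964 in WT, 1292 in *SPAC3F10.17*Δ, 1276 in *ash2*Δ, 986 in *SPAC27D7.08C*Δ, 1017 in *SPBC2A9.02*Δ, 1436 in *meu29*Δ, 1123 in *sgf73*Δ, and 939.9 in the *sec65*Δ-labelled array and 1126 in the *pab1*Δ-labelled one. It lay just inside the line in *meu29*Δ, at 1.49. *mst2* (SPAC17G8.13C) was lowest in *ash2*Δ with 929 and highest in *SPAC27D7.08C*Δ with 1689, beside 1359.5 in WT, ratios of 0.684 and 1.24. In *ash2*Δ the pair thus lay on opposite sides of WT, *mst1* at 1.32 and *mst2* at 0.684.

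The LSD-family demethylase genes *lsd1* and *lsd2* were below WT in nearly all deletions. *lsd1* was lower in all 8, at 0.679 to 0.973, and *lsd2* in 7 of 8. Both were lowest in *sgf73*Δ, at 0.679 and 0.698, just inside the line.

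H2B ubiquitylation needs the conjugating enzyme encoded by *rhp6* and the RING ligases encoded by *brl1* and *brl2*, which work in 1 complex. *brl2* (SPCC970.10C) had a signal of 3098 in *ash2*Δ, 1178 in WT, 1490 in *SPAC3F10.17*Δ, 1047 in *SPAC27D7.08C*Δ, 1337 in *SPBC2A9.02*Δ, 1404 in *meu29*Δ, 1337 in *sgf73*Δ, and 1272 in the *sec65*Δ-labelled array and 1298 in the *pab1*Δ-labelled one. *ash2*Δ stood far above the 8 other arrays, at 2.63 times WT and 2.32 times the median over the remaining 7 deletions, and those 7 lay between 0.889 and 1.27 of WT. This was the largest ratio of the list. *brl2* is also among genes the study tabulated from these same arrays, so the value here is not independent evidence of that direction.

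The partner of *brl2* did not follow it. *brl1* (SPCC1919.15) gave 707 in *ash2*Δ and 873 in WT, with all 8 deletions between 0.781 and 0.997. *rhp6* was between 0.899 and 1.06 and, after *raf2*, spanned the least, 0.24 log2 units. *shf1*, which encodes a further subunit of this ubiquitin ligase complex, was above WT throughout at 1.13 to 1.35, with 1.26 in *ash2*Δ.

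The genes beside *brl2* on the chromosome were not all at WT levels in *ash2*Δ either. *sec8*, the gene next to it on one side, had a ratio of 1.99 there and 0.736 to 1.11 in the other deletions. *wtf9*, the gene next to it on the other side, had 0.410 there and 0.823 to 1.12 elsewhere. *raf2*, a member of the list that lies 3 genes away, had 1.04. Strand-specific detection and shared transcripts were not tested.

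The HIRA chaperone deposits histones outside replication, and its genes *hip1*, *slm9*, *hip3* and *hip4* ranged from 0.756 to 1.35. All 4 were below WT in *ash2*Δ, with a median log2 ratio of -0.19, where all named genes had -0.01. In *meu29*Δ and *sgf73*Δ all 4 were above WT, although median scaling left 3 of 4 above in *sgf73*Δ. Their medians of 0.08 and 0.11 lay near the 0.06 of all named genes in each of these arrays. *hip3* was lowest in *ash2*Δ with 845 beside 1118 in WT. *set9*, for the H4K20 methyltransferase, was lowest in the *pab1*Δ-labelled and *sec65*Δ-labelled arrays, with 654 and 655 beside 838 in WT, ratios of 0.780 and 0.782, and reached 1.17 in *meu29*Δ.

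Some genes kept 1 direction in all deletions. *clr4*, *rik1*, *clr3*, *lsd1* and *brl1* were below WT in all 8, which is 5 of 39 (12.8%) beside 5.59% of all named genes, and WT was therefore the highest of the 9 arrays for them, as it was for 5.59% of all genes. *stc1* and *raf2* were above WT in all 8, beside 8.73% of all genes, and WT was their lowest array, as for 9.24% of all genes. Without *clr4* the ratios of the first group ranged from 0.679 to 0.997, and all 7 genes share the same WT array for each of these signs. Under median scaling and quantile normalization *clr4*, *rik1*, *clr3* and *lsd1* stayed below WT in all 8 and *brl1* did not, while *epe1* joined them under both, *pst2* under the first and *lsd2* under the second, and median scaling left neither *stc1* nor *raf2* above WT in all 8.

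The extremes were unevenly spread over the arrays, for all named genes as for the list. *sgf73*Δ was the lowest of the 9 arrays for 10 of the 39 genes (25.6%), namely *ago1*, *hrr1*, *epe1*, *clr1*, *mit1*, *pst1*, *hos2*, *lsd1*, *lsd2* and *brl1*, beside 17.2% of all named genes. *ash2*Δ was lowest for 9 (23.1%), among them *chp1*, *tas3*, *rik1*, *clr3* and *mst2*, beside 15.5%. *SPAC3F10.17*Δ was highest for 10 (25.6%), 5 of them RNA interference genes, beside 20.2%. Other shares lay below those of all named genes. *SPAC27D7.08C*Δ was lowest for 4 of the 39 genes (10.3%), beside 21.7%, and *sgf73*Δ was highest for 4 (10.3%), beside 19.8%.

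Among 56 further genes of the same pathways, 54 had a named probe set, and 3 of them passed 2-fold in at least 1 deletion, where 11.1% of all named genes did. All 3 were higher. *set7*, for a SET-domain protein, was at 2.16 in *sgf73*Δ, with 2.03 in *meu29*Δ. *set5*, another SET-domain gene, was at 1.55 and 2.03, and *rtt109*, for the acetyltransferase of lysine 56 of H3, at 1.77 and 2.23 in the same deletions. At 1.5-fold, 6 of the 54 were higher and 1 was lower in *meu29*Δ, beside 8.53% and 7.66% of all named genes, and 7 were higher and 3 lower in *sgf73*Δ, beside 8.96% and 9.45%. In *SPAC3F10.17*Δ there were 3 higher and 1 lower, beside 6.40% and 5.19%. In *ash2*Δ there were 1 and 1, beside 3.00% and 5.54%, and in *SPBC2A9.02*Δ 0 and 1, beside 3.38% and 2.83%. The other 3 deletions had none, where 1.71% to 5.02% of all named genes passed the line in each direction.

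A few transcripts known to lie in silenced regions were measured as well, and their relation to the genes above was not tested. *tlh2* encodes a RecQ-type helicase next to a telomere, and its near-identical copy *tlh1* may be detected by the same probes, so the 2 cannot be told apart. The probe set used for *tlh2* gave 68.5 in WT, 442 in *ash2*Δ, 429.8 in *sgf73*Δ and 212 in the *pab1*Δ-labelled array, ratios of 6.45, 6.28 and 3.09. In the other 5 deletions it gave 36.5 to 66.9, none above WT. Its signal was only 1.79 times background in WT and 1.01 times background at the lowest, which limits these ratios. By this probe set *ash2*Δ, *sgf73*Δ and the *pab1*Δ array stood apart from the rest.

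The other probe sets annotated to *tlh2* agreed in part. One of them, above background on 6 of the 9 arrays, gave 276 in *ash2*Δ, 330 in *sgf73*Δ and 166 in the *pab1*Δ-labelled array. Beside 48.3 in WT, these were ratios of 5.72, 6.83 and 3.44. Another, above background on all 9 arrays, gave 172, 117 and 301 beside 118 in WT, ratios of 1.46, 0.995 and 2.55. In this one the *sec65*Δ-labelled array, at 193 and a ratio of 1.63, lay above *ash2*Δ, and *SPAC3F10.17*Δ, at 145 and 1.23, lay above *sgf73*Δ, so that it did not give the same order of arrays. The last was above background on 1 array alone and holds no usable ratio.

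**Figure D4:**
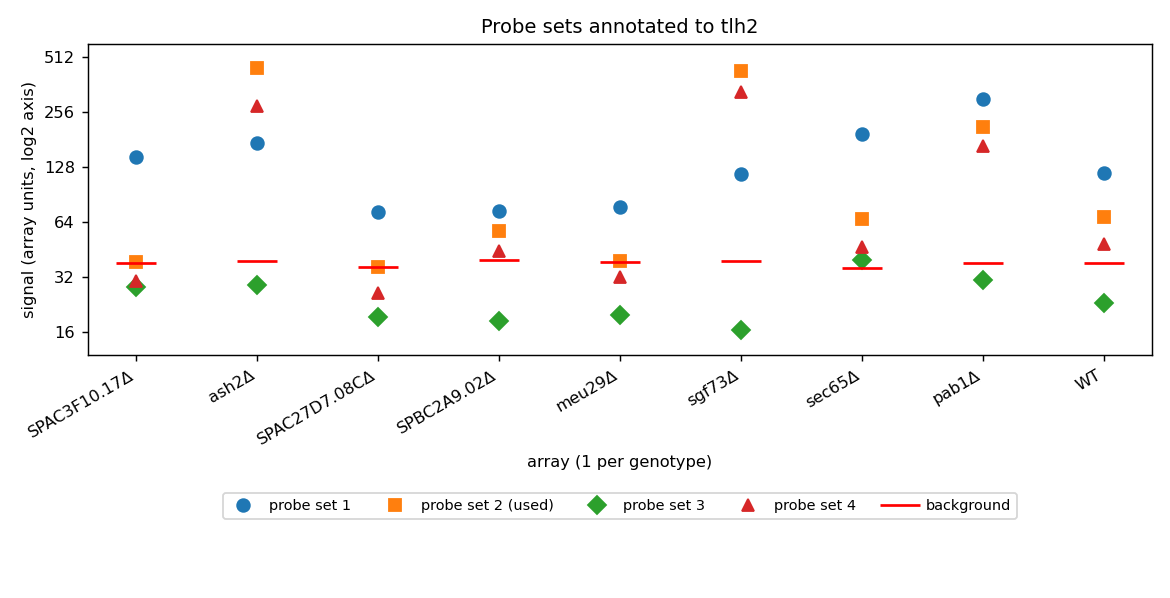
Symbols give the signal (vertical axis, log2 axis in array units) of the 4 probe sets annotated to *tlh2* in each of the 9 arrays (horizontal axis), and the red marks are the background of each array. Probe sets 2 and 4 rise to 442 and 276 in *ash2*Δ and to 429.8 and 330 in *sgf73*Δ, probe set 1 is highest in the array labelled *pab1*Δ at 301, and probe set 3 stays at or below background on all arrays but 1.

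*mei4* and *ssm4*, meiotic genes whose transcripts are removed in growing cells and which can carry H3K9 methylation, behaved differently from *tlh2*. *mei4* gave 125 in WT, 306 in *SPBC2A9.02*Δ, with 309.7 in *SPAC27D7.08C*Δ, ratios of 2.46 and 2.49, and 147 to 238 in the other 6 deletions. *ssm4* was below background in WT, at 27.7, and no higher than 69.6 in any deletion.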

How the data were processed

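RNA of 9 cultures was hybridised to Affymetrix Yeast Genome 2.0 arrays, and the authors deposited 1 log2 signal per probe set and array. The submitters' processing notes name MAS5 without its role, the Shanghai GeneTech Company analysed the arrays for the study, and their normalization, not given in the sources used here, was kept as it stood.

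The array held 10928 probe sets, with 213 controls, 5518 that carried 1 gene symbol and 20 that carried several. Entrez IDs or symbols matched to the ASM294v3 gene table gave 2917 probe sets of 2899 *S. pombe* genes. Coordinates were not used to match probe sets, because the build of the array design is not named. Neighbours of a gene were taken from the order of protein-coding genes in that gene table. Each of the 39 genes had 1 probe set. For genes with several, a plain probe set was preferred to one that may detect several genes, then the highest mean signal. Of the further pathway and silenced genes, *dsh1*, *nts1* and *tlh1* were not analysed here. The background of an array was set at percentile 95 of its 2593 *S. cerevisiae* probe sets. Signals under it took its value, and a ratio needed at least 1 of its 2 arrays above it. Ratios are 2 to the power of the log2 difference from WT.

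Genes were counted at ratios of at least 2 or 1.5, or at most 0.5 or 0.667, beside the same count over all named genes. Counts of a group above or below WT in a deletion stand beside the median of all named genes. The members, the lists and the roles were chosen with earlier results of these data known. Named were all members, further genes past 2-fold, the deleted genes, the silenced loci and genes near *brl2*, *clr4*, *cid12*, *epe1* and *chp2*. *shf1* was named after its values were seen. Alternatives were median scaling, quantile normalization, no floor, a floor at the 99th percentile, both arrays above background, a pseudocount of 50 signal units, the mean of all probe sets and, in place of WT, the median of the 7 remaining deletions. The ratio and count steps were tested on simulated data. The software was pandas 2.3.3, numpy 2.4.6 and scipy 1.17.1 under Python 3.11.15, with matplotlib 3.10.9.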

Additional observations from a re-analysis of the deposited data

How the results depend on the processing

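No paired analysis was possible because each genotype had 1 array, and for the same reason no replicate could be left out. No gene past 2-fold changed sign. The median log2 ratios of the list moved by at most 0.09, but as they lay near 0 some turned, from 0.064 to -0.011 in *SPAC3F10.17*Δ with median scaling and from -0.011 to 0.004 in the *pab1*Δ array with the remaining deletions as the reference. The median of the RNA interference genes in *SPAC27D7.08C*Δ turned from 0.07 to -0.16 with quantile normalization. Removing the floor, requiring both arrays above background or averaging probe sets could not alter any ratio of a member to WT. Each member had 1 probe set and lay above background on all 9 arrays. The call of *brl2* in *ash2*Δ held under every other alternative, and that of *clr4* in *SPBC2A9.02*Δ did not. Its 2-fold count there went from 1 to 0, the number of genes past 2-fold in at least 1 deletion from 2 to 1, and its log2 ratio to -0.68 with the floor at the 99th percentile, -0.61 with the pseudocount of 50 and -0.41 with the 7 remaining deletions, by their median, as the reference. With the pseudocount, the 1.5-fold counts were 1 in *ash2*Δ, 1 in *SPBC2A9.02*Δ, 0 in *meu29*Δ, 2 in *sgf73*Δ and 0 in each of the *pab1*Δ-labelled and *sec65*Δ-labelled arrays, and the genes left in *sgf73*Δ were *chp2* and *epe1*. With the remaining 7 deletions as the reference, they were 1 in *SPBC2A9.02*Δ, 0 in *meu29*Δ, 2 in *sgf73*Δ, again *chp2* and *epe1*, and 0 in each of the *sec65*Δ and *pab1*Δ arrays, while *ash2*Δ held *hst2* and *brl2* in place of *clr4* and *brl2*. Median scaling brought *clr4* past 1.5-fold in *SPAC3F10.17*Δ (2 genes in place of 1). Quantile normalization brought it past 2-fold in *ash2*Δ (2 in place of 1) and past 1.5-fold in *SPAC27D7.08C*Δ (1 in place of 0). Under both, *clr4* took the place of *stc1* in *meu29*Δ, and 6 genes in place of 7 passed 1.5-fold in at least 1 deletion. With the pseudocount 5 genes did, namely *cid12*, *clr4*, *chp2*, *epe1* and *brl2*. With the 7 remaining deletions as the reference 5 did as well, with *hst2* in place of *clr4*. The cause of these shifts was not tested. Leaving out the *sec65*Δ and *pab1*Δ arrays, chosen after seeing the data, left 7 genes past 1.5-fold and 2 past 2-fold. These counts could not change. On those arrays *clr4* alone passed 1.5-fold, as it did in *ash2*Δ, *SPBC2A9.02*Δ and *sgf73*Δ too, and no member passed 2-fold. The single WT array, which all ratios share, and signals near background, as for *clr4*, limit these ratios.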

Other observations

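Of the 54 further pathway genes, 14 passed 1.5-fold in at least 1 deletion, where 33.5% of all named genes did. Some of the 14, named after their values were seen, are given here. *gcn5*, which encodes the acetyltransferase of the SAGA complex, to which the *sgf73* product also belongs, had a signal of 1114 in *sgf73*Δ and 878 in *meu29*Δ beside 581 in WT, ratios of 1.92 and 1.51, and lay at 0.796 to 1.10 in the other 6 deletions. *jmj4*, for a JmjC-domain protein, was at 1.95 in *meu29*Δ, 1.54 in *sgf73*Δ and 1.63 in *SPAC3F10.17*Δ. *jmj2*, for another protein of that kind, was lower at 0.615 in *meu29*Δ, 0.641 in *sgf73*Δ and 0.662 in *ash2*Δ. *png2*, for a subunit of a Clr6 complex, was at 0.607 in *sgf73*Δ and 0.621 in *SPAC3F10.17*Δ. *jmj1* was at 0.549 in *SPBC2A9.02*Δ and 0.566 in *sgf73*Δ. The histone chaperone gene *cia1* was at 1.92 in *SPAC3F10.17*Δ, and *lid2* was at 1.55 in *ash2*Δ.

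The neighbours of 2 members also stood away from WT. *apn1*, next to *epe1*, had a ratio of 1.51 in *meu29*Δ and 1.98 in *SPAC3F10.17*Δ, where *epe1* had 0.725 and 0.760, and 1.12 in *sgf73*Δ, where *epe1* had 0.521. *saf1* and *naa50*, which flank *cid12*, were at 1.73 and 1.65 in *meu29*Δ and at 1.61 and 1.41 in *sgf73*Δ, where *cid12* had 1.02 and 0.896. The genes next to *chp2*, *ogm4* and *rpl3201*, stayed at 0.935 to 1.27 and at 0.969 to 1.05 of WT over the deletions.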
